A study of Homo sapiens with 18 samples.

Results

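The genes described here encode the histones of human cells: the linker histone H1 and the 4 core histones H2A, H2B, H3 and H4. They were taken from the deposited table of estimated counts by symbol (H1-, H2AC, H2AJ, H2AX, H2AZ, H2BC, H2BW, H3C, H3-, H4C and H4- names) among genes with a protein-coding transcript, which gave 84 of 62749 genes. Of these, 68 are replication-dependent genes, 8 are variant genes (among them H1-10, H2AJ, H2AX, H2AZ1, H2AZ2, H3-3A and H3-3B) and 8 are germline-restricted or otherwise unusual genes (H1-6, H1-7, H1-8, H2BW1, H2BW2, H3-4, H3-5 and H3-7).

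The study sequenced 18 mRNA libraries, 3 for each of 6 conditions, all read here as the line MDA-MB-231, which derives from a human triple-negative breast tumour. That reading is an assumption, since the number at the end of the cell line label starts at MDA-MB-231 and rises by 1 from each sample to the next. The number at the end of the nuclear and cytosolic genotype labels also rises by 1 per sample, and all were read as IMPDH2. The conditions were parental cells (WT), cells in which IMPDH2 was knocked out (KO), KO cells cultured with 400 µM guanosine, and KO cells into which IMPDH2 was reintroduced without a stated location, as a nuclear form or as a cytosolic form. The 4 rescue groups carry the knockout too, and the 3 IMPDH2 forms were grown without guanosine. The labels do not say whether the knockout is 1 clone or a pool, how strongly or from which promoter the forms were driven, or whether replicates were grown apart. Each p therefore rests on the spread among the sequenced samples, which may be technical.

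Histones wrap DNA into nucleosomes. Replication-dependent histone genes lie in clusters as many near-identical copies, are transcribed mainly in S phase, and give messages that end in a conserved stem-loop in place of a poly(A) tail. Variant genes are spread over the genome, mostly have introns and poly(A) tails, and are expressed outside S phase as well. IMPDH2 catalyses the step that commits IMP to guanine nucleotides, a pool that guanosine can also feed by salvage. An mRNA library kit enriches RNA with a tail, so the levels of replication-dependent genes below are those of the transcripts that such a kit retained, not of all histone message in the cells.

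Library totals were 45865079 to 63276484 estimated counts, and 19252 genes passed a filter on low counts. IMPDH2 checked the labels: its mean level was 318.8 CPM in WT, 41.6 in KO, 22.1 in KO with guanosine, and 532.2, 297.4 and 378.7 with the unlocalised, nuclear and cytosolic form. The cell line's mesenchymal markers VIM, CD44 and AXL were high in all groups, and ESR1, PGR, CD3E, DCN and KRT14 averaged at most 0.165 CPM in each. The other listed markers of other cell types, PTPRC, PECAM1, VWF, LUM and TP63, are not given here. ERBB2, listed as a gene that should be low, stood at 69.4 to 83.3 CPM. Levels are TMM-scaled CPM (counts relative to library size after a correction for library composition), unless TPM, which also corrects for transcript length, is named. Each ± is an SD over n = 3 libraries, except that fold changes carry a standard error (SE). The calls higher and lower come from the quasi-likelihood test of edgeR, with Benjamini-Hochberg adjustment over all 19252 genes and a threshold of 0.05.

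Of the 84 histone genes, 38 passed the filter: all 8 variant genes, 29 of the 68 replication-dependent genes, and H3-7 alone among the 8 others. Another 18 genes had 0 counts in all 18 libraries, and the highest untested gene, H3C13, had 94 counts over all of them. Among the tested replication-dependent genes 12 averaged at least 1 CPM over the 18 libraries and 17 averaged less, and this division was made after the values were seen. The lowest gene of the upper class was H2BC15 (1.11 CPM) and the highest of the lower class H2BC18 (0.87 CPM). A low gene could pass the filter through the group in which it was high, so counts over the 17 low genes describe those genes only.

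On the length-corrected scale, variant genes made up most of the histone message recovered. Their summed level was 2579 ± 37.7 TPM in WT, against 184.6 ± 6.59 TPM for the 68 replication-dependent genes together. H3-3B, which encodes the replacement histone H3.3, led in WT with 856.6 ± 5.42 TPM, followed by H2AZ1 (742.0 ± 16.1 TPM) and H3-3A (416.2 ± 42.1 TPM). H2BC12, an H2B gene, was the highest replication-dependent gene with 59.9 ± 1.20 TPM in WT. H2BC5 (31.3 ± 3.20 TPM) and the linker histone gene H1-2 (19.2 ± 1.89 TPM) came next. Within each class these 3 genes did not overlap in their mean ± SD.

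Sequences are shown for 2 features of histone genes: the stem-loop known from the end of replication-dependent messages and the promoter. The stem-loop was sought as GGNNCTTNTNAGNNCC, on the sense strand only, in GENCODE 29 transcripts that had the same identifier and length as a deposited one, which held for 61 of the 158 histone transcripts. It stood in 12 of these 61, which include transcripts not annotated as protein-coding. Among coding transcripts alone, 221 of 83129 in GENCODE 29 held it (0.266%). The single transcripts of H2BC12 and H1-2 were not among the 61. In the matched transcripts that held the stem-loop and took counts, it was not at the end. The stretches below thus show stem-loops inside longer RNAs, with the 16-base stem-loop in capitals and 5 bases on each side.

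H2AC6-201, 1128 bases follow the stem-loop: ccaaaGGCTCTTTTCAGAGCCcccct

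H4C8-203, 1655 bases follow: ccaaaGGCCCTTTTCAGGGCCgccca

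H4C14-204, 1167 bases follow: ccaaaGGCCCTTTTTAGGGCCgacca

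H2BC6-202, 430 bases follow: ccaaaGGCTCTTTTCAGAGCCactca

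H2AX-201, 821 bases follow: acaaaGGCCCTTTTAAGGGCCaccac

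H2AX, the variant that is phosphorylated at DNA breaks, thus carries the stem-loop of a replication-dependent gene upstream of a longer end, as its known pair of message forms has it. For most replication-dependent genes with forms of several lengths, the counts fell mainly on forms longer than the shortest coding one. H2BC18 was the exception, with 1.31% of its counts on longer forms over all libraries. For H2AC6, H4C8 and H2BC6, 100% of the estimated counts fell on transcripts longer than the shortest coding one, in every group. For H2BC5 the 789-base form took between 61.6% ± 1.99 of counts in WT and 64.6% ± 3.41 in KO with guanosine, against a 486-base form. Its share in KO, where the gene was higher, was 62.8% ± 1.17. H2BC12 (495 bases) and H1-2 (731 bases) have 1 annotated transcript each, so for them long and short forms could not be separated.

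Transcripts not annotated as protein-coding took 100% of H4C8 counts in every group, so the values of H4C8 are those of such transcripts alone. They took 64.0% to 72.5% of H2AC6 counts and 59.8% to 100% of H4C14 counts as group means. Among the variant genes they took 44.0% to 45.1% of H3-3B counts. For H2AZ1 they took 16.9% ± 0.93 in WT and 20.3% ± 0.73 in KO, with the rescue groups between. For H2AJ they took 7.83% ± 0.67 in WT, 3.09% ± 0.38 in KO and between 4.18% and 5.04% in the others.

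Promoter sequences came from RefSeq (GRCh38.p14), as 250 bases before and 50 after the start, and matched 76 of the 84 genes. The motifs were searched on both strands: a CCAAT box, a TATA box in the form TATAAA, and the octamer ATTTGCAT that is known from H2B promoters. CCAAT stood in 53 of 62 replication-dependent promoters (85.5%) and in 6 of 7 variant promoters, against 35.7% of all 27305 promoters. Split by family, it stood in 5 of 5 H1, 16 of 16 H2A, 18 of 18 H2B and 11 of 11 H3 promoters. Only 3 of 12 H4 promoters held it (25%), a share under that of all promoters. TATAAA stood in 42 of 62 (67.7%) and 4 of 7, against 11.95% of all. ATTTGCAT stood in 26 of 62 (41.9%) and 1 of 7, against 1.80% of all, and its occurrence differed by family: 14 of 18 H2B promoters and 11 of 16 H2A promoters held it, 1 of 11 for H3, 0 of 12 for H4 and 0 of 5 for H1. The motifs do not contain one another, although CCAAT and ATTGG, or TATAAA and TTTATA, can overlap at their ends when both strands are read.

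The promoters of 3 genes that carry results below are printed with these motifs in capitals: H2BC12, which has all 3 motifs, H2BC5, an H2B gene without this octamer in the window, and H2AZ1, a variant gene. H2BC12 (chr6:27146809-27147108, minus strand) and H2BC5 (chr6:26157871-26158170, plus strand) lie in the histone cluster of chromosome 6, and H2AZ1 (chr4:99950226-99950525, minus strand) stands alone.

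H2BC12: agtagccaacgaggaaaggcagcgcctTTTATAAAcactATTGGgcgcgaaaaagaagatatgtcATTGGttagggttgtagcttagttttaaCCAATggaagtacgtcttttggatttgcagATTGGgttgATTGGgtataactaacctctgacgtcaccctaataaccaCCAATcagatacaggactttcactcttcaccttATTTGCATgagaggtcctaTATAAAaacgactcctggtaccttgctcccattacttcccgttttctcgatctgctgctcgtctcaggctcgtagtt

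H2BC5: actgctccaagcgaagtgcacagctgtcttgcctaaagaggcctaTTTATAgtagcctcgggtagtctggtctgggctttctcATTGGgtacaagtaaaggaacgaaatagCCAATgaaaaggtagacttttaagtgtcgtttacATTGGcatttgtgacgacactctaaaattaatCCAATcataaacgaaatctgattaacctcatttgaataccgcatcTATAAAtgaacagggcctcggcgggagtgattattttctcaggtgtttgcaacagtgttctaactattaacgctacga

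H2AZ1: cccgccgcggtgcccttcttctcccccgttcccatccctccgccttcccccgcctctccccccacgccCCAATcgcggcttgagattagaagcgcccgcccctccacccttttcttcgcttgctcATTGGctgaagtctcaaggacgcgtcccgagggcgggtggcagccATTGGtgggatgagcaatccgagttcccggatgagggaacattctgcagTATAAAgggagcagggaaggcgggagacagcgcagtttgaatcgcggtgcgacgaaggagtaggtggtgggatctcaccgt

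The summed levels show that the classes took different courses over the 6 groups. The 8 variant genes summed to 1919 ± 17.8 CPM in WT and 1285 ± 7.30 in KO, and to between 1688 ± 13.4 and 1959 ± 24.1 in the 4 rescue groups. The 12 replication-dependent genes of at least 1 CPM went the other way between WT and KO, from 67.3 ± 2.85 to 91.6 ± 3.94 CPM. They stood at 87.5 ± 2.76 CPM with guanosine, 113.0 ± 1.82 with the unlocalised form, 76.9 ± 2.77 with the nuclear form and 131.1 ± 6.40 with the cytosolic form. The 56 replication-dependent genes under 1 CPM, tested or not, were lowest in KO, as the variants were. They stood at 8.21 ± 0.35 CPM in WT, 3.82 ± 0.27 in KO, and 7.41 ± 0.32, 5.56 ± 0.21, 4.83 ± 0.27 and 6.77 ± 0.44 in the guanosine, unlocalised, nuclear and cytosolic groups. The ratio of the nuclear to the cytosolic mean was 0.71 for these 56 genes, 0.59 for the 12 and 0.97 for the variants. In KO the sum of the 12 genes thus stood above and that of the 56 genes below its WT level. The sum of the 12 was higher still with the unlocalised and the cytosolic form, and only this sum was highest with the cytosolic form. Its genes did not all share this rise over KO. With the unlocalised form 5 of the 12 had log2 fold changes below 0, and with the cytosolic form 2 did.

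**Figure D1:**
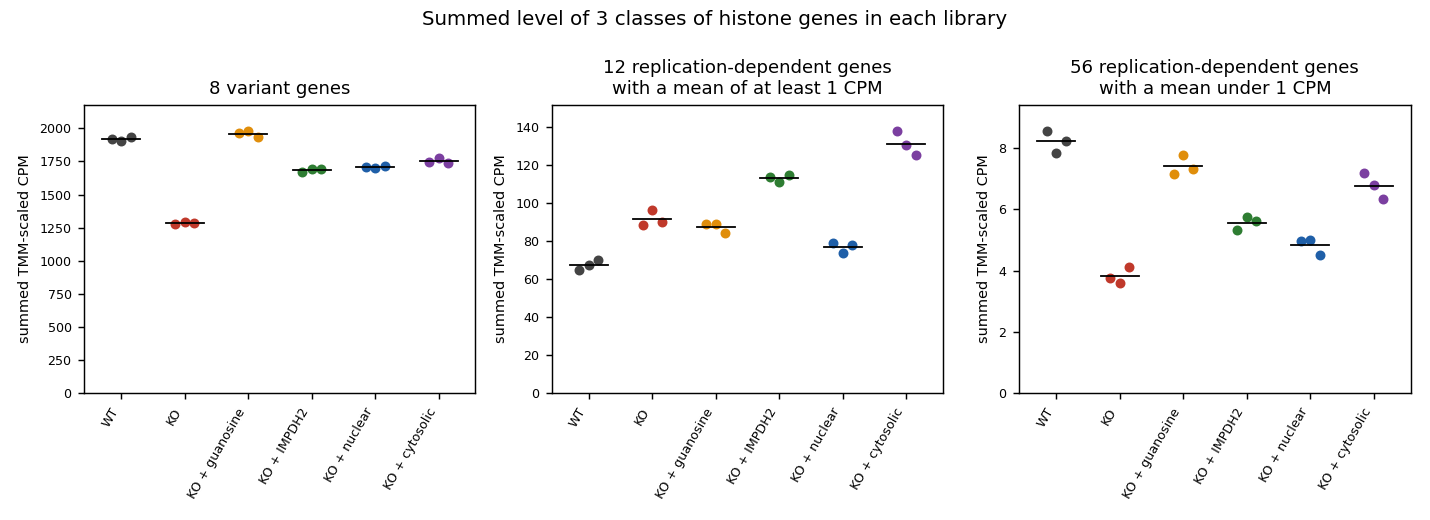
Summed TMM-scaled CPM (vertical axis, from 0) of 3 classes of histone genes in each library of the 6 groups (horizontal axis); points are libraries and bars group means. The variant genes and the low replication-dependent genes have their lowest 3 libraries in KO, while the 12 higher replication-dependent genes are lowest in WT and highest with cytosolic IMPDH2.

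By family, the sums over replication-dependent copies, which do not depend on how reads were divided among near-identical members, were led by H2B. H2B summed to 35.2 ± 1.34 CPM in WT, 49.99 ± 1.12 in KO and 72.1 ± 3.77 with the cytosolic form. H1 stood at 10.4 ± 1.06 CPM in WT, 12.2 ± 0.12 in KO and 24.3 ± 1.99 with the cytosolic form, nearly all of it H1-2. H3, the family with the least message, held only genes averaging under 1 CPM, with H3C10 the highest (0.68 CPM). It is thus part of the low class above, which was also lower in KO. The H3 sum ran against those of H1 and H2B, with 2.35 ± 0.22 CPM in WT and 0.88 ± 0.11 in KO. Its rescue groups stood at 1.74 ± 0.04 CPM with guanosine, 1.42 ± 0.08 with the unlocalised form, 1.07 ± 0.11 with nuclear IMPDH2 and 1.58 ± 0.17 with cytosolic IMPDH2. H4 sums overlapped between WT and KO, with 7.42 ± 1.31 and 9.83 ± 1.70 CPM.

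KO was first set against WT, to see how histone genes differ once IMPDH2 is lost. Among the 38 tested histone genes 9 rose and 17 fell, where 35.9% of all genes were called higher and 36.8% lower, so the share called, 26 of 38, was near the 72.7% of all genes. The median log2 fold change was -0.44 (-0.52 when H4C11, which had no counts in either group, is left out and other genes at 0 are set to a bound of 3 counts over the group), against 0.01 for all genes. In bulk RNA, fewer cells in S phase and less histone message per cell cannot be told apart.

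Of the 8 variant genes 7 fell in KO and H2AJ rose. H2AZ1 encodes H2A.Z, a variant found at promoters and regulatory regions. It stood at 402.3, 395.4 and 394.2 CPM in the WT libraries and at 185.7, 183.0 and 178.1 in KO. The groups lay far apart, and the log2 fold change was -1.12 ± 0.03 SE (edgeR adjusted p = 3.39e-16).

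H2AX stood at 92.5, 78.5 and 79.9 CPM in WT and at 43.5, 44.5 and 58.9 in KO, where the third library was above the others. Its log2 fold change was -0.77 ± 0.11 SE (edgeR adjusted p = 4.76e-06). The linker histone gene H1-10 had the same uneven KO libraries (26.2, 28.4 and 35.4 CPM against 57.6, 53.6 and 55.5 in WT) and fell by 0.88 on the log2 scale. The groups did not overlap for either gene.

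H3-3B and H3-3A encode the same H3.3 protein, which is deposited outside S phase as well. H3-3B stood at 547.4, 553.8 and 552.3 CPM in WT and at 382.2, 372.8 and 372.3 in KO. It fell by 0.55 on the log2 scale (edgeR adjusted p = 5.69e-14), and H3-3A fell by 0.37. H2AZ2, the second H2A.Z gene, fell by 0.32.

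H2AJ, an H2A variant known to accumulate in senescent cells, was the exception, at 18.8, 17.4 and 18.8 CPM in WT and 31.98, 32.3 and 34.0 in KO. The log2 fold change was 0.84 ± 0.05 SE (edgeR adjusted p = 9.60e-11). It had the opposite direction to the other 7 variants in each of the 4 comparisons against KO as well.

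**Figure D2:**
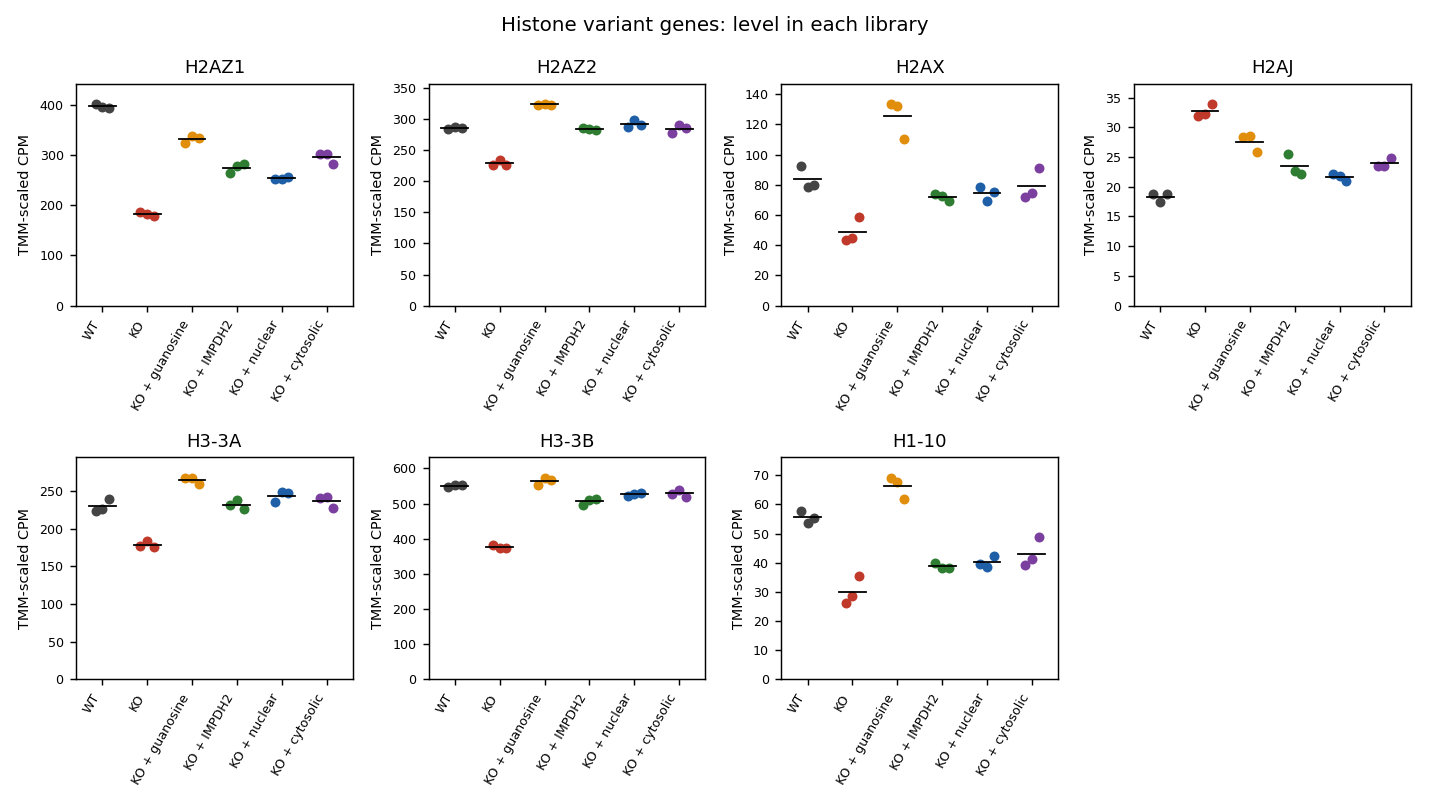
TMM-scaled CPM (vertical axis, from 0) of 7 variant histone genes in each library of the 6 groups (horizontal axis); points are libraries and bars group means. In 6 panels the KO libraries are the lowest, and for H2AJ they are the highest (31.98 to 34.0 CPM against 17.4 to 18.8 in WT).

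Of the 12 replication-dependent genes of at least 1 CPM, 7 rose and 1 fell in KO, with a median log2 fold change of 0.30. H4C8, an H4 gene whose counts all fell on transcripts not annotated as protein-coding, had the largest change among these 12. It stood at 2.97, 3.16 and 3.02 CPM in WT and 6.68, 6.45 and 6.38 in KO (log2 fold change 1.09 ± 0.08 SE, edgeR adjusted p = 2.73e-10). H2BC5 stood at 9.13, 10.8 and 11.02 CPM in WT and 18.5, 19.8 and 20.3 in KO (log2 fold change 0.92 ± 0.07 SE, edgeR adjusted p = 9.41e-10). For both genes every KO library was above every WT library, which the rule for named genes required. Of all genes, 74.7% did not overlap between KO and WT in either direction.

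The other 5 that rose were H2BC21 (0.58 on the log2 scale), H2AC19 (0.41), H2BC12 (0.34), H1-2 (0.31) and H2AC6 (0.23). H2BC12 stood at 17.2, 16.9 and 17.2 CPM in WT and 21.3, 22.5 and 21.2 in KO, without overlap. H2BC4 was the gene of this class that fell, by 0.55, with 1.21 ± 0.20 CPM in WT and 0.82 ± 0.18 in KO, and its groups overlapped. The H2BC4 call was lost without the second WT library (edgeR adjusted p = 0.060) or the first KO library (0.064). That of H2AC6 was lost when only protein-coding transcripts were counted (0.45). H3-7, an H3 gene outside these classes, rose from 6.79 ± 0.77 to 11.2 ± 0.42 CPM (log2 fold change 0.72 ± 0.07 SE, edgeR adjusted p = 6.32e-08).

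Of the 17 tested genes under 1 CPM, 9 fell in KO and 0 rose. At this depth they rest on few counts. The linker histone gene H1-4 stood at 0.83, 0.72 and 0.68 CPM in WT and 0.16, 0.055 and 0.22 in KO. The H3 gene H3C2 stood at 0.51, 0.30 and 0.30 CPM in WT and 0, 0.037 and 0.063 in KO. Their log2 fold changes were -2.31 ± 0.45 SE and -3.34 ± 0.65 SE (edgeR adjusted p = 1.69e-04 and 1.48e-04). The rule for named genes required 2 CPM, so these and the other genes under 2 CPM given by value were chosen after their values were seen.

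H4C11 and H4C12 are near-identical H4 copies between which Salmon could divide reads unevenly: H4C11 was listed at 0 in all WT, KO and cytosolic libraries and at up to 0.74 CPM elsewhere, and H4C12 stood at 0 to 0.37 CPM in the libraries where H4C11 had counts. Calls on either alone are uncertain. Their sum was 0.95 ± 0.20 CPM in WT, 0.26 ± 0.04 in KO, and 0.68 ± 0.06, 0.55 ± 0.13, 0.73 ± 0.03 and 1.01 ± 0.23 in the guanosine, unlocalised, nuclear and cytosolic groups.

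The machinery around the histone genes moved too. Of 28 genes for histone chaperones and exchange 20 fell and 4 rose in KO. HJURP, the chaperone of the centromeric variant CENP-A, fell from 136.1 ± 4.69 to 52.8 ± 1.46 CPM, and the H3-H4 chaperone gene ASF1B from 104.7 ± 3.66 to 49.1 ± 0.47. IPO4, an importin that carries H3-H4 into the nucleus, rose from 88.6 ± 0.74 to 147.2 ± 2.64 CPM. The chaperone NASP and the subunits CHAF1A and CHAF1B of chromatin assembly factor fell by 0.91, 0.70 and 0.57 on the log2 scale.

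Of 20 genes for transcription, stem-loop processing and turnover of histone messages, 13 fell and 7 rose. SLBP, the protein that binds the stem-loop, fell by 0.24 on the log2 scale, and CASP8AP2, which is needed for histone transcription and processing, by 0.71. NPAT, the coactivator of histone transcription, rose by 0.14, and ZNF473, a zinc finger protein of the U7 processing complex, by 0.45. CENPA and MACROH2A1, the 2 tested of 8 symbols listed separately as variants, fell by 1.09 and 0.94.

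Of 15 S-phase genes 14 fell and 0 rose. Their summed level lay between 2412 and 2430 CPM in the WT libraries and between 1509 and 1579 in KO. In the rescue groups it lay between 2608 and 2682 CPM with guanosine, 2153 and 2240 with the unlocalised form, 2257 and 2312 with nuclear IMPDH2 and 2194 and 2311 with cytosolic IMPDH2. The part of S-phase content in the histone levels was not tested.

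Guanosine, the unlocalised form, the nuclear form and the cytosolic form were each compared with KO. These 4 comparisons share the 3 KO libraries, so their directions are not independent of one another, and the values are given side by side. In all 4, the same 7 variant genes rose and H2AJ fell. With guanosine 27.3% of all genes rose and 29.2% fell, with the unlocalised form 25.7% and 25.1%, with the nuclear form 26.1% and 26.9%, and with the cytosolic form 24.6% and 26%. Called in either direction were 56.5%, 50.8%, 53% and 50.6% of all genes.

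H2AZ1 rose to 323.2, 338.1 and 335.1 CPM with guanosine, and to 264.4, 278.8 and 282.1 with the unlocalised form. With nuclear IMPDH2 it stood at 251.8, 252.5 and 256.3 CPM, and with cytosolic IMPDH2 at 301.4, 302.7 and 282.9. All 12 values lay above KO and under WT. The log2 fold changes over KO were 0.87, 0.59, 0.48 and 0.70 in that order (largest edgeR adjusted p = 3.23e-10).

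H2AX rose most with guanosine, to 133.7, 132.5 and 110.7 CPM, and these libraries lay above the 78.5 to 92.5 CPM of WT. The log2 fold change over KO was 1.36 ± 0.11 SE with guanosine (edgeR adjusted p = 5.81e-09) and 0.55, 0.60 and 0.69 with the unlocalised, nuclear and cytosolic form. H1-10 likewise reached 66.2 ± 3.93 CPM with guanosine, against 38.8 ± 0.91, 40.1 ± 1.97 and 43.1 ± 4.98 with the 3 forms. Guanosine was not tested against WT.

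H3-3B rose by 0.59, 0.43, 0.49 and 0.49 on the log2 scale with guanosine and the unlocalised, nuclear and cytosolic form. H3-3A rose by 0.57, 0.38, 0.45 and 0.41, and H2AZ2 by 0.50, 0.31, 0.35 and 0.32. H2AJ fell by 0.25, 0.48, 0.60 and 0.45, with 27.6 ± 1.46, 23.4 ± 1.83, 21.7 ± 0.69 and 24.0 ± 0.75 CPM. All of these passed edgeR's test after adjustment, and H2AJ stayed above the WT libraries in all 12.

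The replication-dependent genes of at least 1 CPM did not share one direction over the 4 comparisons. Over KO, 1 rose and 4 fell with guanosine, 6 rose and 1 fell with the unlocalised form, 0 rose and 6 fell with the nuclear form, and 8 rose and 0 fell with the cytosolic form. Some of these calls lay near the threshold. Of 12 other fits (6 alternative settings and 6 that each left out 1 library), the falls of H2BC21 and H2BC15 with guanosine held in 4 and 3, the rise of H2BC11 with the unlocalised form in 3 and the fall of H2BC15 with the nuclear form in 4. The 4 genes lower with guanosine were 2 with DESeq2 size factors, without the filter on low counts, with the DESeq2 Wald test, without the second KO library or without the second guanosine library. The median log2 fold changes of the class were 0.01, 0.23, -0.43 and 0.33. Over all 38 tested histone genes the counts were 19 up and 6 down with guanosine, 18 and 3 with the unlocalised form, 10 and 9 with nuclear IMPDH2 and 22 and 2 with cytosolic IMPDH2. The medians were 0.58, 0.36, 0.07 and 0.48 (0.49 with the cytosolic form when H4C11 is left out), and that of all genes was -0.02 in each.

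H1-2 stood at 12.1, 12.2 and 11.8 CPM in KO and at 13.2, 12.6 and 11.6 with guanosine. It stood at 20.3, 20.1 and 20.1 CPM with the unlocalised form, 11.95, 11.9 and 11.6 with nuclear IMPDH2 and 25.5, 24.8 and 21.9 with cytosolic IMPDH2. It rose with the unlocalised form (log2 fold change 0.74 ± 0.07 SE, edgeR adjusted p = 4.84e-08) and with the cytosolic form (1.00 ± 0.07 SE, adjusted p = 9.09e-10). With guanosine and the nuclear form the log2 values were 0.05 and -0.03 (adjusted p = 0.54 and 0.78), and the libraries overlapped those of KO.

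H2BC12, like H1-2, was highest with the cytosolic form and next with the unlocalised form. It stood at 22.7, 23.8 and 21.9 CPM with guanosine, 34.6, 33.7 and 33.8 with the unlocalised form, 24.4, 21.6 and 23.5 with nuclear IMPDH2 and 44.2, 38.2 and 38.5 with cytosolic IMPDH2. The log2 fold changes over KO were 0.07 (edgeR adjusted p = 0.28), 0.65 (1.60e-08), 0.09 (0.17) and 0.89 (2.29e-10).

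H2BC5 and H4C8, the genes that rose most in KO, fell with guanosine by 0.32 and 0.39 on the log2 scale and with the nuclear form by 0.63 and 0.56. H2BC5 stood at 12.7 ± 0.81 CPM with the nuclear form and 20.2 ± 0.83 with the cytosolic form, whose log2 value over KO was 0.05 (edgeR adjusted p = 0.60). H4C8 rose with the cytosolic form by 0.32 (adjusted p = 0.0011). With the unlocalised form H2BC5 was called lower by 0.17 (adjusted p = 0.040), a call that was lost under 4 of the other settings and under 4 of 6 settings that each left out 1 library (adjusted p 0.055 to 0.16 where lost).

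H2AC6 and H2AC19, both H2A genes, fell with the nuclear form by 0.39 and 0.52 and rose with the unlocalised form by 0.20 and 0.39 and with the cytosolic form by 0.23 and 0.34. For H2AC6 both rises were lost when only protein-coding transcripts were counted (edgeR adjusted p = 0.63 with the unlocalised form and 0.97 with the cytosolic form). For H2AC19 the rise with the cytosolic form was lost without the third KO library (adjusted p = 0.066) or the third cytosolic library (0.091). H2BC6 and H2BC11 rose with the cytosolic form by 0.77 and 0.48, and the H2BC11 call was lost without the second cytosolic library (adjusted p = 0.11).

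H3-7 fell in all 4 comparisons, by 0.80, 0.86, 0.85 and 0.56 on the log2 scale with guanosine and the unlocalised, nuclear and cytosolic form, from 11.2 CPM in KO to between 6.17 and 7.59.

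**Figure D3:**
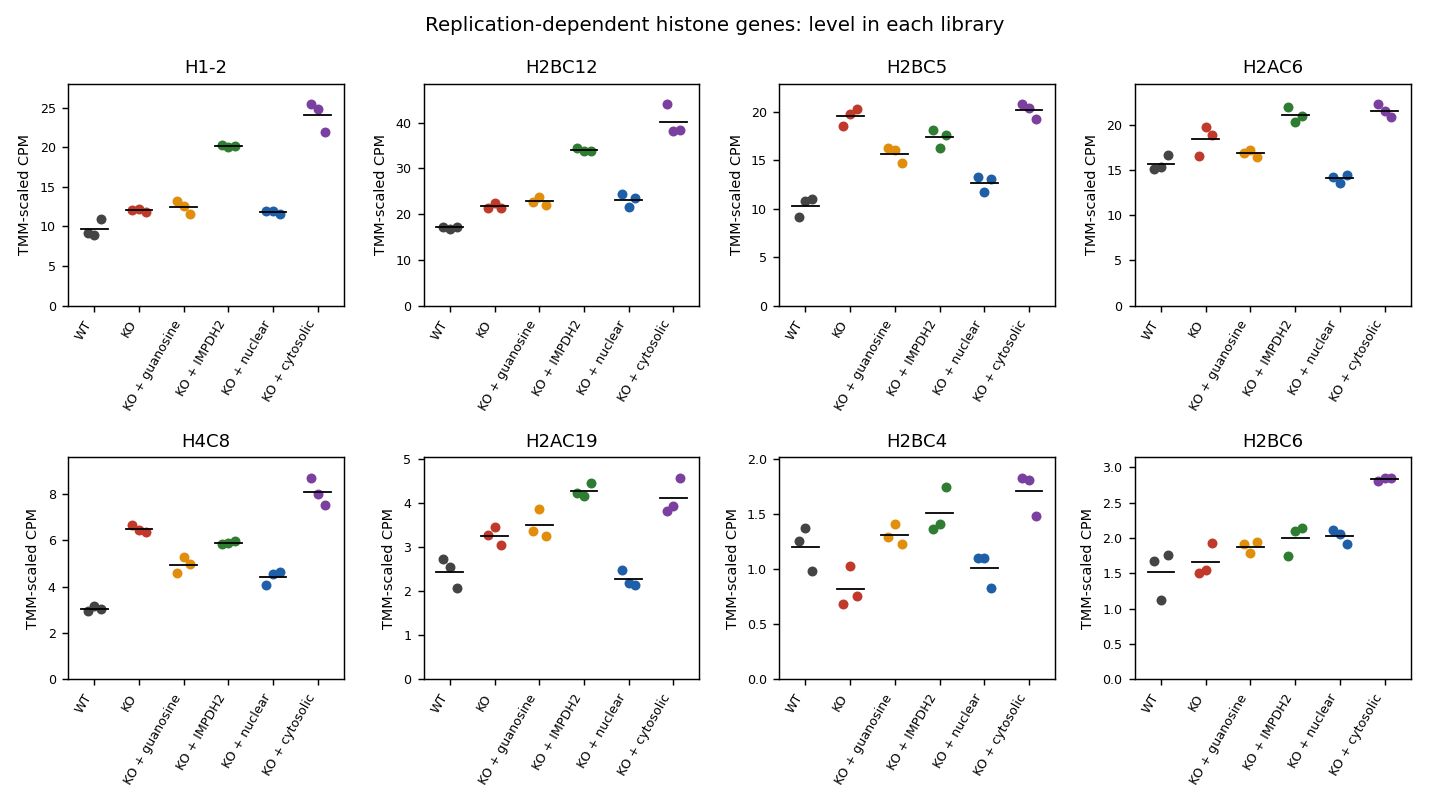
TMM-scaled CPM (vertical axis, from 0) of 8 replication-dependent histone genes in each library of the 6 groups (horizontal axis); points are libraries and bars group means. H1-2 and H2BC12 are highest with the unlocalised and cytosolic form, H2BC5 and H4C8 are low in WT, and in all 8 panels the nuclear libraries lie under the cytosolic ones.

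Of the 17 tested genes under 1 CPM, 11 rose over KO with guanosine, 5 with the unlocalised form, 3 with nuclear IMPDH2 and 7 with cytosolic IMPDH2. Fitted on the 6 compared libraries alone, 7 rose with guanosine and 2 with the unlocalised form. The calls lost there were of genes that did not pass the filter in that fit and so were not tested. These were H2AC12, H2AC13, H3C2, H3C3 and H4C11 with guanosine, and H3C2, H4C11 and H4C3 with the unlocalised form. In the main fit none of the 17 fell with guanosine or with the unlocalised or cytosolic form, and 1, H2BC18, fell with the nuclear form. The uncertain copy H4C11 is among those that rose with guanosine, the unlocalised and the nuclear form. H2AC20, an H2A gene of the chromosome 1 cluster, rose in all 4, from 0.20 ± 0.11 CPM in KO to 0.82 ± 0.15 with guanosine and 0.61 to 0.62 with the 3 forms. The WT level of this gene was 0.34 ± 0.05 CPM. H4C3 stood at 0.081 ± 0.046 CPM in KO, 0.37 ± 0.07 with guanosine and 0.14 ± 0.02 with the nuclear form.

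Most chaperone genes rose in each of the 4 comparisons: of 28, 22 rose and 4 fell with guanosine, 19 and 4 with the unlocalised form, 20 and 4 with nuclear IMPDH2 and 21 and 4 with cytosolic IMPDH2. HJURP rose by 1.28, 0.99, 1.05 and 1.05 on the log2 scale, and ASF1B by 1.41, 0.73, 0.74 and 0.79. Of the 20 processing genes 13, 15, 14 and 15 rose and 5, 4, 3 and 2 fell, with SLBP up by 0.48, 0.32, 0.35 and 0.28. All 15 S-phase genes rose in each.

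The nuclear and cytosolic forms were compared directly, which asks whether the location of the enzyme matters for these genes. Of the 38 tested histone genes 16 were lower with the nuclear form and 1 was higher, where 10.5% of all genes were lower, 13.4% higher and 23.9% called either way. The median log2 fold change was -0.48, against 0.00 for all genes. The gene called higher was H4C11, one of the 2 copies whose calls are uncertain. The sum of both copies was 0.73 ± 0.03 CPM with nuclear IMPDH2 and 1.01 ± 0.23 with cytosolic IMPDH2. Among those lower were H2AZ1 and H3-7, the latter by 0.29 on the log2 scale.

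Among the 12 replication-dependent genes of at least 1 CPM, 11 fell and all 12 values were negative, with a median of -0.72. H1-2 had the largest change, at 11.8 ± 0.20 CPM against 24.1 ± 1.91 with the cytosolic form (log2 fold change -1.03 ± 0.07 SE, edgeR adjusted p = 9.41e-09). H4C8 fell by 0.87, with 4.06, 4.55 and 4.63 CPM against 8.72, 8.02 and 7.55. H2AC19 fell by 0.85, with 2.48, 2.18 and 2.15 CPM against 3.82, 3.93 and 4.58.

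H2BC12 fell by 0.80 (edgeR adjusted p = 1.15e-08), H2BC15 by 0.77, H2BC4 by 0.76, H2BC5 by 0.67 (1.28e-06), H2AC6 by 0.62 (5.75e-07), H2BC21 by 0.58, H2BC11 by 0.52 and H2BC6 by 0.49. In 10 of the 11 genes called lower all 3 nuclear libraries lay under all 3 cytosolic ones. The exception was H2BC11, where 1 nuclear library (1.96 CPM) lay above 1 cytosolic library (1.85 CPM). Of all genes, called or not, 36.2% did not overlap between these groups in either direction. H4C14 was not called, at -0.57 ± 0.54 SE (adjusted p = 0.51), although its libraries did not overlap. The H2BC11 call held in 6 of the 12 other fits of this comparison, and that of H2AC6 was lost with protein-coding transcripts only (0.093). Of the 17 genes under 1 CPM, H2AC17, H3C10 and H2BC18 fell, and these calls held in 11, 7 and 10 of the 12. Without the third nuclear library, 0 of the 17 were called lower.

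Among the variants 1 of 8 was called. H2AZ1 fell by 0.22 ± 0.03 SE (edgeR adjusted p = 2.36e-05), and the other 7 were not called, with log2 values between -0.14 (H2AJ, adjusted p = 0.061) and 0.04 (H3-3A, 0.40). H2AJ passed when only protein-coding transcripts were counted (adjusted p = 0.039) or only these 6 libraries were fitted (0.047). The sum of the 8 variants was 1708 ± 6.87 CPM with nuclear IMPDH2 and 1754 ± 22.8 with cytosolic IMPDH2, and that of the 68 replication-dependent genes 81.7 ± 2.69 and 137.9 ± 6.83.

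**Figure D4:**
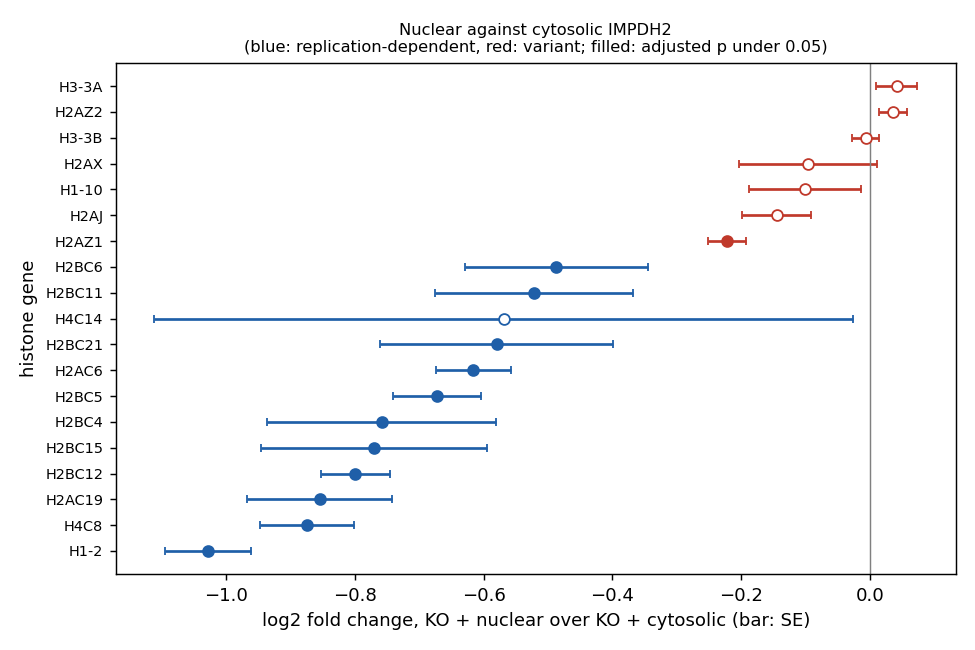
Log2 fold change of nuclear over cytosolic IMPDH2 (horizontal axis, bars are SE) for the 12 replication-dependent genes of at least 1 CPM (blue) and 7 variant genes (red); filled points passed edgeR's test. The blue points lie between -1.03 and -0.49 and the red ones between -0.22 and 0.04.

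Of the 15 S-phase genes, 4 were higher and 1, RRM2, lower with the nuclear form, and their sum overlapped between the groups. Of the 28 chaperone genes 3 were higher (ATRX, HIRA and CABIN1) and 2 lower, IPO4 by 0.29 on the log2 scale and CHAF1A by 0.08. Of the 20 processing genes 0 were higher by edgeR and 3 were lower: ZNF473, with 16.04 ± 0.54 against 20.6 ± 0.47 CPM, the endonuclease complex subunit CPSF2, with 188.0 ± 4.31 against 220.9 ± 12.2, and the Sm protein gene SNRPB, by 0.10. SLBP had a log2 value of 0.08 (adjusted p = 0.16).

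IMPDH2 itself was also lower with the nuclear form, by 0.35 on the log2 scale. Since an mRNA kit selects tails, RNAs known to lack them were read beside this result. RMRP stood at 0.58 ± 0.12 CPM with nuclear IMPDH2 and 1.17 ± 0.15 with cytosolic IMPDH2, whereas RN7SL1 stood at 22.3 ± 2.76 and 15.99 ± 1.52 and RN7SL2 at 16.2 ± 0.90 and 10.1 ± 1.31. These RNAs moved in both directions, and their part, like that of the IMPDH2 level, was not tested.

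The genes of the chromosome 6 cluster were set beside their neighbours. Positions were found for 80 of the 84 histone genes. H2AC18, H2AC19, H3C2 and H3C3, of which 3 were tested, had none and are left out of the clusters here. The chromosome 6 cluster (25726132 to 27893843 in GRCh38) holds 53 of the 80, of which 20 were tested. Between the nuclear and the cytosolic form their median log2 fold change was -0.72, and that of the 28 other tested coding genes within 1 Mb was -0.06. In KO against WT the histone genes had -0.28 and the neighbours 0.29. The neighbours also had 0.29 in the unlocalised form against WT, and values between -0.12 and -0.04 in the 4 comparisons against KO, where the histone genes had 0.74, 0.37, 0.01 and 0.78. In the chromosome 1 cluster (149782689 to 149887916, 8 genes with 5 tested) the histone genes had -0.57 between the nuclear and the cytosolic form and the 26 neighbours 0.01. In KO against WT the values were 0.06 and -0.22, and in the unlocalised form against WT -0.01 and -0.24. Against KO the 5 histone genes had 0.58 with guanosine, -0.27 with the unlocalised form, -0.67 with nuclear IMPDH2 and -0.08 with cytosolic IMPDH2, and the neighbours -0.02 to 0.06. Guanosine against the unlocalised form gave 0.41 and -0.03.

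Guanosine was compared with the unlocalised form, as 2 ways of supplying guanine nucleotides. Of the 38 tested histone genes 11 were higher with guanosine and 6 lower, where 18.6% of all genes were higher, 18.9% lower and 37.6% called either way, and the median was 0.22 against 0.00. Of the 8 variant genes 7 were higher, H2AX and H1-10 most, by 0.80 and 0.77 on the log2 scale (edgeR adjusted p = 9.44e-06 and 1.34e-06). The other 5 of these were higher by 0.16 to 0.27.

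Of the 12 replication-dependent genes of at least 1 CPM, 6 were lower with guanosine. H1-2 was lower by 0.69 and H2BC12 by 0.58 on the log2 scale (edgeR adjusted p = 3.17e-07 and 1.78e-07), H2BC11 by 0.43, H2AC6 by 0.32, H2AC19 by 0.29 and H4C8 by 0.25. The calls of H4C8 and H2AC19 were lost without the first guanosine library (adjusted p = 0.064 and 0.13) and without the filter on low counts (0.080 and 0.15). That of H2AC19 held in 3 of 12 other fits. It was also lost by the DESeq2 Wald test (0.081), with a replicate block (0.060), with protein-coding transcripts only (0.063), and without the third guanosine library or any 1 of the 3 unlocalised libraries (0.072 to 0.16). The H2BC11 call held in 5 of the 12. H4C14 was called higher, by 1.48 ± 0.54 SE (adjusted p = 0.040), with 4.80, 3.10 and 3.88 CPM against 0.18, 2.12 and 1.92. Without any 1 of the 3 guanosine libraries or the first unlocalised library the H4C14 call was lost (adjusted p 0.050 to 0.12), as it was by the DESeq2 Wald test (0.067) and with protein-coding transcripts only (0.33). Of the processing genes 8 were higher and 4 lower, of the chaperones 15 and 4, and of the S-phase genes 10 and 0.

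The unlocalised form was compared with WT to see how far the rescue reached. Of the 38 tested histone genes 12 were higher and 9 lower than in WT, where 31.1% of all genes were higher, 33.4% lower and 64.5% called either way, and the median was -0.11 against 0.00. Of the 8 variants 4 were lower, among them H2AZ1 by 0.53, H1-10 by 0.52 and H3-3B by 0.12 on the log2 scale. H2AJ was higher by 0.35. H2AX, H2AZ2 and H3-3A were not called, with values of -0.22, -0.01 and 0.01 (edgeR adjusted p = 0.088, 0.75 and 0.77). H2AX passed when genes of low counts were kept or only these 6 libraries were fitted (adjusted p = 4.21e-04 and 0.0096).

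Of the replication-dependent genes of at least 1 CPM 9 were higher than in WT and 0 lower, with a median of 0.57. H1-2 was higher by 1.06, H2BC12 by 0.99, H4C8 by 0.95, H2AC19 by 0.81 and H2BC5 by 0.75 on the log2 scale (largest edgeR adjusted p = 4.89e-06). In each of these 5 every library of the unlocalised form was above every WT library, which the rule for named genes required. Of all genes, 68.8% did not overlap between these groups in either direction. The calls of H2BC21 and H2AC6 held in 6 and 11 of the 12 other fits. Of the 17 genes under 1 CPM 2 were higher and 5 lower (2 lower by the DESeq2 Wald test), among them H1-4, with 0.18 ± 0.01 against 0.74 ± 0.08 CPM. CENPA and MACROH2A1 were lower by 0.35 and 0.66, and of the processing genes 8 were higher and 8 lower, of the chaperones 5 and 15 and of the S-phase genes 4 and 4.

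**Figure D5:**
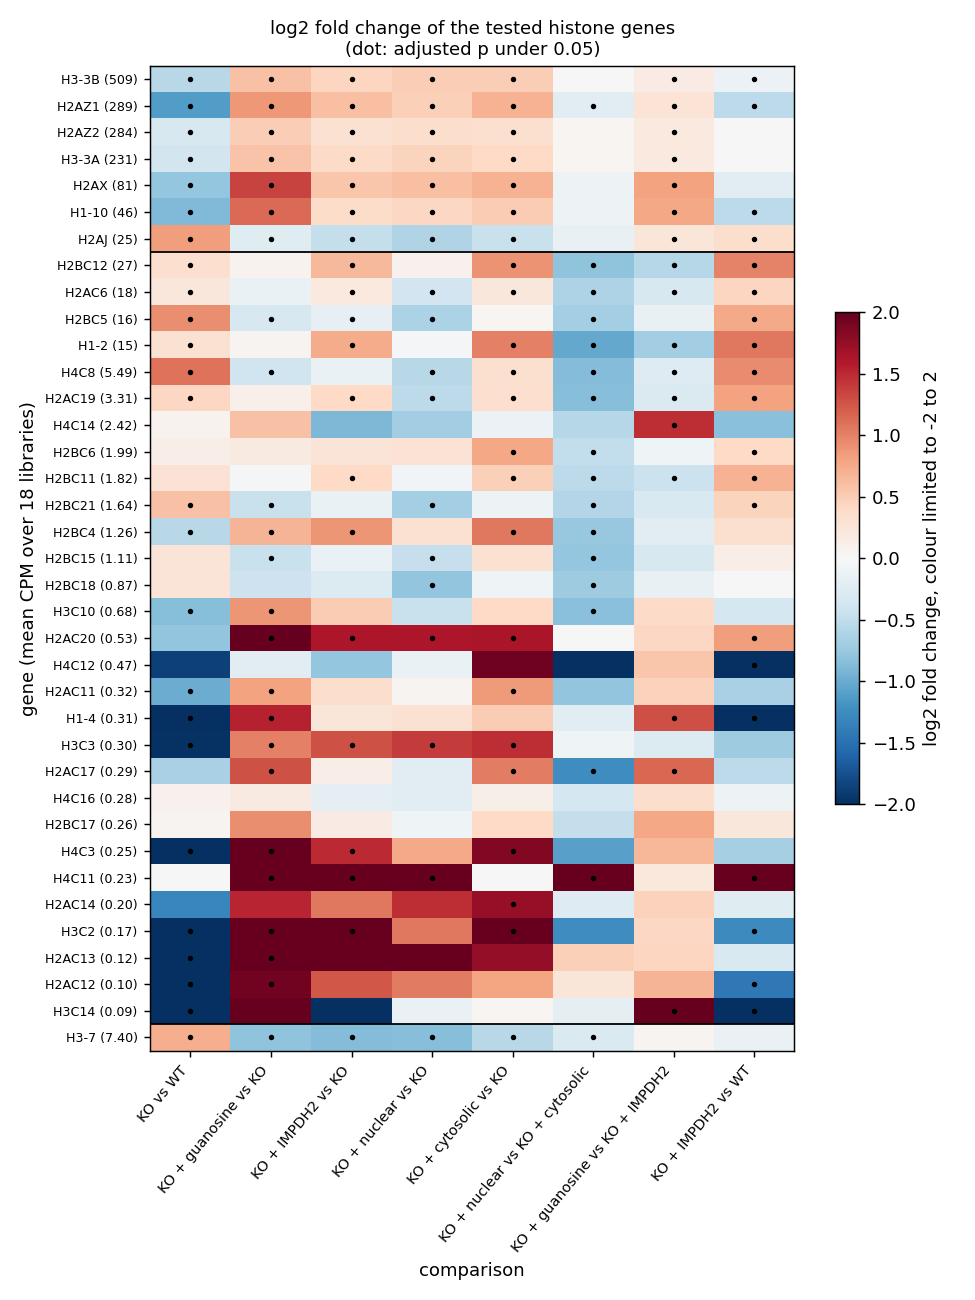
Log2 fold change (colour, limited to -2 to 2) of 37 of the 38 tested histone genes (rows, with their mean CPM) in the 8 comparisons (columns); a dot marks an adjusted p under 0.05, and lines divide variant, replication-dependent and other genes. The column of nuclear against cytosolic IMPDH2 is negative for all 12 replication-dependent genes of at least 1 CPM, and the variant rows other than H2AJ are negative in KO against WT and positive in the 4 comparisons against KO.

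The positions of the genes that the results turn on are given in GRCh38 from GENCODE 29, which covered 80 of the 84 genes by identifier. H2AZ1 (ENSG00000164032.12) spans 99948086 to 99950388 on the minus strand of chromosome 4, and H2AX (ENSG00000188486.4) 119093854 to 119095467 on the minus strand of chromosome 11. H3-3B (ENSG00000132475.10) spans 75776434 to 75785893 on the minus strand of chromosome 17, and H2AJ (ENSG00000246705.5) 14774383 to 14778002 on the plus strand of chromosome 12. In the chromosome 6 cluster, H1-2 (ENSG00000187837.4) spans 26055787 to 26056428 and H4C8 (ENSG00000158406.6) 26277609 to 26285638, both on the minus strand. H2BC5 (ENSG00000158373.9) spans 26158146 to 26171349 on the plus strand and H2BC12 (ENSG00000197903.8) 27146418 to 27146798 on the minus strand.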

How the data were processed

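Polyadenylated RNA of 18 libraries (6 groups of 3) was measured with a stranded mRNA kit, per the labels' protocols. The submitters' processing notes list Trim Galore 0.6.10, a read trimmer, Salmon 1.10.0, a transcript quantifier, and the build hg19. The authors deposited estimated counts (expected counts) and TPM per transcript, per the file headers. The deposited estimated counts, of which 32.5% per transcript had decimals, were added up by gene and then rounded, and the deposited TPM were summed to genes for levels between genes. All 18 libraries entered 1 edgeR 4.0.16 fit (R 4.3.3) with filterByExpr, 1 coefficient for each group, TMM scaling and the two-sided quasi-likelihood test, with adjustment within each of 8 comparisons at a threshold of 0.05. The script was tested on simulated data. TMM against library totals shifted KO against WT by -0.16 on the log2 scale. Sums over genes carry no test. The depth of 45865079 to 63276484 counts per library leaves genes under 1 CPM on few counts.

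Replicate numbers did not pair the samples: same-numbered libraries of different groups correlated at a median of -0.000786 (45 pairs, -0.083 to 0.146) in their deviations from the group means. Replicates differed by more than sampling noise. The named genes were the variants, up to 5 other histone genes per direction with 2 CPM, an adjusted p under the threshold and no overlap, by size of the fold, and up to 3 per direction of the other lists. SLBP, NPAT, CASP8AP2, ASF1B, CHAF1A and CHAF1B were always named, and NASP, genes below 2 CPM and members outside the rule in a comparison were named after their values were seen. The members, lists and comparisons were chosen with earlier results of these data known. Alternatives were DESeq2 1.42.0 size factors and Wald test, no filter, a replicate block, protein-coding transcripts only, the 6 compared libraries only, library totals, TPM shares and each library left out. Python 3.11.15 with pandas 2.3.3 and matplotlib 3.10.9 joined tables and drew plots. The values of 1 variant gene are not reported here, although counts, medians and sums include it. Raw reads were not analysed here.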

Additional observations from a re-analysis of the deposited data

How the results depend on the processing

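The counts called over all 38 tested histone genes stayed within 1.5 times of those reported under all alternatives, with 2 exceptions, while counts within a class moved more. The single gene higher with the nuclear than with the cytosolic form (H4C11) was lost with the DESeq2 Wald test (0 genes), and 0 to 1 genes were higher when each library was left out. The 6 genes lower with guanosine than with the unlocalised form became 3 without the filter on low counts and 3 to 6 when each library was left out, 3 without the first guanosine library. Within the replication-dependent genes of at least 1 CPM, the range over 12 other fits was 2 to 3 for the 4 genes lower with guanosine than KO, 0 to 1 for the single gene lower with the unlocalised form than KO (H2BC5), 4 to 6 for the 6 higher with it, 5 to 6 for the 6 lower with the nuclear form than KO, 6 to 8 for the 8 higher with the cytosolic form and 8 to 11 for the 11 lower with the nuclear than the cytosolic form. Within those under 1 CPM it was 7 to 12 for the 11 higher with guanosine than KO, 2 to 6 for the 5 higher with the unlocalised form, 2 to 5 for the 3 higher with the nuclear form, 0 to 4 for the 3 lower with the nuclear than the cytosolic form, 1 to 3 for the 3 higher with guanosine than the unlocalised form and 2 to 5 for the 5 lower with the unlocalised form than WT. In these counts a gene that did not pass the filter in a fit was taken as not called, and H4C8 could not be tested with protein-coding transcripts only. The genes lower with the nuclear than with the cytosolic form numbered 11 to 16 when each library was left out, 11 without the third nuclear library. With library totals in place of TMM, the log2 ratios of summed levels of KO over WT became 0.39 for H1, 0.32 for H2A, 0.67 for H2B, 0.50 for all replication-dependent genes, -0.42 for the variants, 0.60 for replication-dependent genes of at least 1 CPM and -0.94 for those under it. Guanosine over KO became -0.15 for H2B and 0.54 for the variants. With TPM in place of counts, the share of longer transcript forms became 75.9% for H2BC11, 97.4% for H2BC15, 45.7% for H2BC5 and 65.8% for H4C14. The cause was not tested.

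Among values of single genes under an alternative, 1114 kept direction and side of the threshold, 29 lost the call, 4 gained one and 11 changed sign, all of these uncalled and near 0. Between the nuclear and the cytosolic form these were H2AX (-0.160 to 0.0137 when each library was left out, above 0 without the third cytosolic one), H3-3A (-0.00485 with protein-coding transcripts only) and H3-3B (-0.0199 to 0.0093, above 0 without the second cytosolic library). Between the unlocalised form and WT H2AZ2 became 0.0188 without a filter, 0.0449 with protein-coding transcripts only, 0.0141 with the 6 libraries alone, and -0.00579 to 0.0126 when each library was left out, below 0 without the second WT library. A replicate block, although the numbers do not pair the samples, left 16 genes lower with the nuclear than with the cytosolic form; 5 of 18 libraries correlated best with their own number.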
